A study of Arabidopsis thaliana with 12 samples.

Results

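The genes described here are 10 transcripts that mark dividing plant cells: the B1-type cyclins CYCB1;1 (AT4G37490), CYCB1;2 (AT5G06150), CYCB1;3 (AT3G11520) and CYCB1;4 (AT2G26760), the A-type cyclin CYCA1;1 (AT1G44110), the kinases CDKB1;1 (AT3G54180), CDKB1;2 (AT2G38620), CDKB2;1 (AT1G76540) and CDKB2;2 (AT1G20930), and the syntaxin KNOLLE (AT1G08560). They were taken by locus code, with no threshold on their values, and are 10 of the 37336 genes in the count table. All 10 passed the filter on low counts, which 21376 genes passed.

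RNA was sequenced from whole Arabidopsis thaliana seedlings of accession Col-0, 3 days after germination, in 4 groups of 3 libraries. The groups were er-105 erl2-1 double mutants given IAA (indole-3-acetic acid, an auxin hormone) at 1 uM with 0.02% dimethyl sulfoxide, the same mutants given 0.02% dimethyl sulfoxide alone (mock), wild-type (WT) seedlings given IAA, and WT seedlings given mock. Treatment lasted 30 min, after all seedlings had been moved to liquid medium. ER and ERL2 encode receptor kinases of 1 family, and the third family member, ERL1, carries no labelled mutation in any group. The labels do not say whether the libraries of a group came from separate cultures, so p-values measure the spread between these libraries, which may be technical.

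In plants, A- and B-type cyclins bind cyclin-dependent kinases and drive entry into and passage through mitosis. The B-type kinases (CDKBs) are particular to plants and are made in a window of the cell cycle around G2 and mitosis. KNOLLE is a membrane-fusion protein that builds the cell plate, the new wall between daughter cells. Many genes of this phase carry the mitosis-specific activator element in their promoters, which is bound by MYB3R transcription factors and has the core AACGG.

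That core was found on either strand, with overlapping matches counted, in the 250 bases upstream of 6 of the 10 genes (every B1 cyclin but CYCB1;4, then CYCA1;1, CDKB2;2 and KNOLLE). Among the 27443 protein-coding genes, 20.6% held it in the same window. The longer forms TCTAACGG or TCCAACGG were found upstream of CYCB1;2, with 4 matches, and of CYCB1;3, with 2 matches, against 1.45% of protein-coding genes. The 3 stretches below were chosen for print because they hold at least 3 cores each. The share of all genes with that many cores was not counted. Each is written 5′ to 3′ on the gene's own strand, the minus strand, and ends at the base before the annotated start. Capitals mark AACGG or its reverse complement. Sequences and coordinates are from RefSeq, build TAIR10.1. The stretches lie, in the order printed, at chr4:17624309-17624486, chr5:1861704-1861856 and chr3:3627274-3627347.
CYCB1;1: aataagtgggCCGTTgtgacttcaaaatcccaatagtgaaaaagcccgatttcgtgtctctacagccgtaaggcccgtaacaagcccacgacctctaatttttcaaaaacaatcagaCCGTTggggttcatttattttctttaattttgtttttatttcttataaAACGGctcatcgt
CYCB1;2: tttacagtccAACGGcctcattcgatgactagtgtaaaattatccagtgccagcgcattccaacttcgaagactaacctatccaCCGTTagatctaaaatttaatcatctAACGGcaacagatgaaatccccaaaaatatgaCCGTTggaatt
CYCB1;3: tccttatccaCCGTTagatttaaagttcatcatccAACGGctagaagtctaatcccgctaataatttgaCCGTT
A match is a string of letters, and binding was not measured here.

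Total counts ranged from 28930625 to 35837999 per library. ER, the targeted receptor gene, averaged 7.33 ± 0.93 CPM (read counts scaled to library size) in er erl2 IAA libraries and 6.55 ± 1.86 in er erl2 mock libraries, against 55.3 ± 3.13 in WT IAA and 60.6 ± 3.44 in WT mock libraries (SD, n = 3 each). ERL2 averaged 2.63 and 3.14 CPM in er erl2 IAA and er erl2 mock, against 10.3 and 12.4 CPM in WT IAA and WT mock. Reads of both genes remained in the mutants, and the table does not show which part of each gene they came from. Leaf and root hair transcripts were both present in every group (LHCB1.3 at 14460 to 18650 CPM and EXP7 at 13.3 to 21.3 CPM). Of 4 auxin-induced genes chosen as a check, edgeR called 4 higher with IAA in er erl2 and 3 in WT (IAA19, IAA5 and LBD29), at an adjusted p under 0.05, while DESeq2 and limma-voom called 4 in each genotype. The fourth in WT, GH3.3, had 604, 616 and 619 CPM with IAA against 65.3, 49.99 and 214 CPM with mock, a log2 fold change of 2.48 (SE 0.50, edgeR adjusted p = 0.066).

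KNOLLE was the most abundant of the 10 genes. Scaled to the TMM-adjusted library size, it had 25.5, 23.9 and 25.9 CPM in the er erl2 IAA libraries and 27.3, 23.8 and 28.6 CPM in the er erl2 mock libraries. WT IAA libraries had 26.9, 33.0 and 24.7 CPM, and WT mock libraries 30.9, 29.1 and 29.4 CPM. All 3 er erl2 mock libraries lay below all 3 WT mock libraries, while the IAA-treated genotypes overlapped.

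The 2 kinases of the CDKB2 class, which act at G2 and in mitosis, differed from each other in level. CDKB2;1 had 20.8, 19.9 and 18.5 CPM in er erl2 IAA libraries, 19.4, 21.0 and 21.8 CPM in er erl2 mock, 17.9, 20.08 and 16.45 CPM in WT IAA, and 20.3, 20.3 and 20.7 CPM in WT mock. The WT IAA libraries all lay below the WT mock libraries, and those of the mutant overlapped. CDKB2;2 had 10.1, 10.4 and 11.6 CPM in er erl2 IAA libraries and 10.3, 10.7 and 11.4 CPM in er erl2 mock libraries. Its WT IAA libraries had 9.88, 11.1 and 9.31 CPM, and its WT mock libraries 11.9, 10.5 and 10.7 CPM. The groups overlapped in each comparison, and per kilobase of exon this kinase stayed below its partner, which was 1.63 to 2.10 times higher, in all 12 libraries.

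The CDKB1 class, which in Arabidopsis also acts in the divisions that form stomata, had lower means in each group. Per kilobase of exon, the ranges of CDKB1;1 and CDKB2;2 overlapped in WT IAA and in WT mock. CDKB1;1 had 8.91, 7.10 and 9.98 CPM in er erl2 IAA libraries, 8.63, 9.01 and 9.29 CPM in er erl2 mock, 7.26, 9.34 and 7.04 CPM in WT IAA, and 7.49, 10.6 and 9.12 CPM in WT mock. Its WT libraries spread more widely than its er erl2 mock libraries, and the groups overlapped. CDKB1;2 had 4.01, 3.69 and 3.98 CPM in er erl2 IAA libraries, 4.39, 3.54 and 4.89 CPM in er erl2 mock, 3.80, 3.97 and 3.72 CPM in WT IAA, and 3.73, 5.47 and 4.09 CPM in WT mock. It was the least abundant of the 10, at 106 to 177 raw counts, and its highest values were single mock libraries of each genotype. Per kilobase the first of the pair stood 2.10 to 2.83 times above the other in all 12 libraries.

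Among the B1 cyclins, CYCB1;2 was the most abundant, with 17.1, 16.1 and 15.4 CPM in er erl2 IAA libraries and 18.5, 14.8 and 16.4 CPM in er erl2 mock libraries. WT IAA libraries had 18.1, 18.0 and 14.4 CPM, and WT mock libraries 18.4, 20.9 and 19.5 CPM. WT mock reached the highest values, but the highest er erl2 mock library overlapped with its lowest. Of 1630 windows of 50 bases along its exons, 184 (11.3%) recur in CYCB1;5 (AT1G34460, on chromosome 1), so some reads could have been split between them or dropped. That gene averaged 2.34, 2.90, 3.25 and 3.69 CPM in er erl2 IAA, er erl2 mock, WT IAA and WT mock. The other 9 genes had 0 such windows.

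CYCB1;1, the cyclin most used in reporters of cell division, was the most variable. It had 7.82, 5.53 and 6.90 CPM in er erl2 IAA, 5.44, 7.04 and 7.05 in er erl2 mock, 6.52, 8.35 and 4.74 in WT IAA, and 8.50, 6.45 and 7.03 in WT mock. All 4 groups overlapped. Its coefficient of variation within groups was 18.9%, against 6.81% from counting alone, while that of CDKB2;1 was the smallest at 6.31%, against 3.99%.

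CYCB1;3 had 5.42, 5.70 and 7.30 CPM in er erl2 IAA, 8.01, 6.34 and 8.46 in er erl2 mock, 6.49, 6.44 and 5.92 in WT IAA, and 6.71, 7.03 and 6.72 in WT mock. The mutant's treatments overlapped, and the WT IAA libraries all lay below WT mock. CYCB1;4 had 10.01, 10.9 and 10.08 CPM in er erl2 IAA, 10.7, 8.94 and 12.25 in er erl2 mock, 10.3, 10.2 and 8.29 in WT IAA, and 10.09, 10.4 and 10.2 in WT mock. The WT mock libraries were close together and lay inside the range of the er erl2 mock libraries.

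CYCA1;1, the A-type cyclin of the set, had 8.62, 10.7 and 9.35 CPM in er erl2 IAA, 9.62, 9.04 and 9.71 in er erl2 mock, 8.48, 10.2 and 8.72 in WT IAA, and 9.05, 11.4 and 8.04 in WT mock. The er erl2 mock libraries were the closest together, and all groups compared overlapped.

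**Figure D1:**
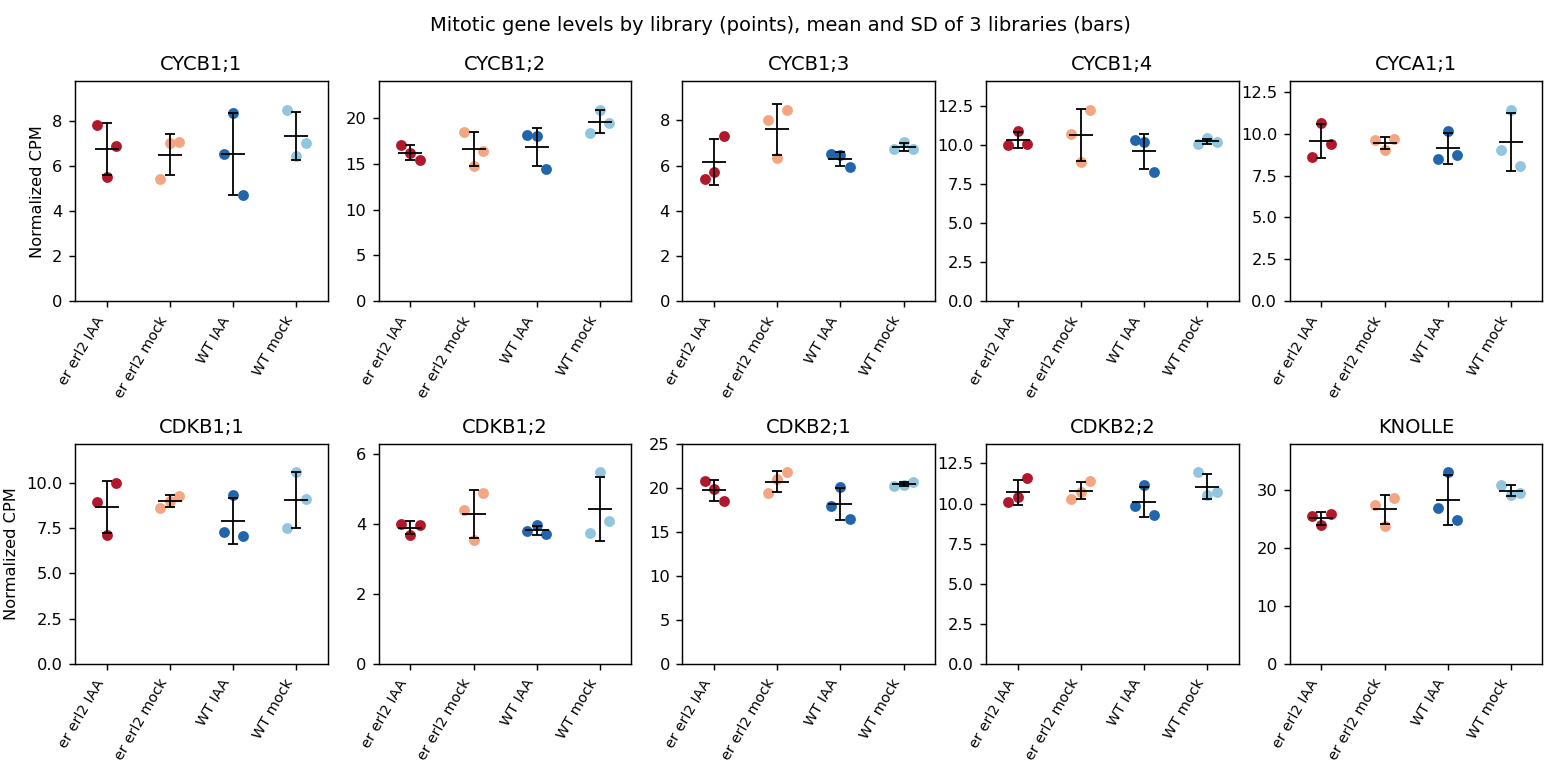
Normalized CPM (vertical axes, from 0) of the 10 genes in each library (points), by group, with the mean and SD of 3 libraries (bars). Most groups overlap, and KNOLLE reaches the highest level, at 23.8 to 33.0 CPM.

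Per kilobase of exon, the order was much the same in all 4 groups. KNOLLE came first, then CDKB2;1, then CYCB1;2, and the ranges of these neighbours did not overlap in any group. CDKB2;2 and CDKB1;1 came next, followed by CYCB1;4, CYCA1;1, CYCB1;1 and CYCB1;3, whose neighbouring ranges overlapped in every group. CDKB1;2 was last in all 4 groups, with a range below that of the gene before it. KNOLLE stood 2.95 to 4.81 times above CYCA1;1.

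**Figure D2:**
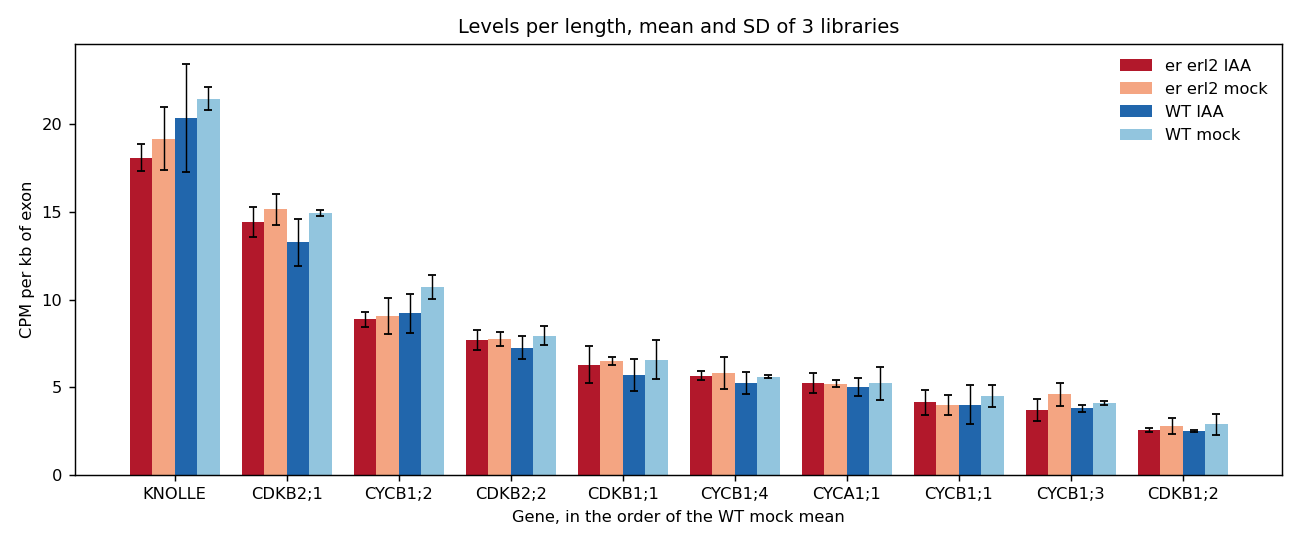
Level per kilobase of exon of the 10 genes in each of the 4 groups. KNOLLE is highest in each group, and the ranges of the middle genes overlap.

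The loci lie on all 5 chromosomes. In TAIR10.1, KNOLLE spans chr1:2709525-2711000 (minus strand, 2 exons) and CDKB2;1 chr1:28720328-28722550 (minus strand, 8 exons). The 3 cyclin genes whose upstream stretches are printed span, in that order, chr4:17621886-17624308 (8 exons), chr5:1859279-1861703 (5 exons) and chr3:3625286-3627273 (5 exons), all on the minus strand. The 4 CDKBs and KNOLLE each overlap exons of a gene on the opposite strand, and whether counting used strand is not given in the sources used here. The largest overlap, 464 of the 1386 exon bases of KNOLLE, is with NPQ1 (AT1G08550), a violaxanthin de-epoxidase gene. NPQ1 averaged 36.6 CPM in er erl2 mock against 24.3 CPM in WT mock, and 34.1 CPM in er erl2 IAA against 25.1 CPM in WT IAA. It was higher in the mutant by a log2 fold change of 0.59 (SE 0.088) under mock and 0.45 (SE 0.088) under IAA, with edgeR quasi-likelihood adjusted p of 0.000422 and 0.00372. Its part in the KNOLLE counts was not tested.

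Under mock treatment, none of the 10 genes differed between er erl2 and WT at an adjusted p under 0.05, whereas 15.7% of all tested genes did. The test was edgeR's quasi-likelihood test with Benjamini-Hochberg adjustment over all 21376 genes, and DESeq2 and limma-voom also called 0 of the 10. At an unadjusted p under 0.05 each of the 3 tools passed 1 of 10, and edgeR passed 29.3% of all genes. That gene was CYCB1;2, which averaged 16.6 ± 1.85 CPM in er erl2 mock against 19.6 ± 1.24 CPM in WT mock (SD, n = 3 each), a log2 fold change of -0.24 (SE 0.10, edgeR adjusted p = 0.131). KNOLLE averaged 26.6 CPM against 29.8 CPM, a log2 fold change of -0.16 (SE 0.097, edgeR adjusted p = 0.292). It was the 1 gene of the 10 whose groups did not overlap, against 33.5% of all genes. The median log2 fold change of the 10 was -0.023, beside -0.013 for all genes tested, with 3 positive and 7 negative estimates. In bulk RNA, fewer dividing cells and less RNA per dividing cell cannot be told apart in this or the following comparisons.

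Under IAA, 0 of the 10 differed between er erl2 and WT by edgeR, DESeq2 or limma-voom, against 14.0% of all tested genes by edgeR. None passed an unadjusted p under 0.05 (28.4% of all genes), and 0 of 10 had groups that did not overlap (33.1% of all genes). KNOLLE averaged 25.1 ± 1.07 CPM in er erl2 IAA and 28.2 ± 4.26 CPM in WT IAA, a log2 fold change of -0.17 (SE 0.097). CDKB2;1 averaged 19.7 CPM in er erl2 IAA and 18.2 CPM in WT IAA, a log2 fold change of 0.12 (SE 0.083). The median of the 10 was 0.054, beside -0.003 for all genes, with 7 positive and 3 negative estimates. The comparisons share libraries with those of the IAA effect below, so their estimates are not independent.

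In er erl2, 30 min of IAA changed 0 of the 10 genes by any of the 3 tools, and 1.53% of all genes by edgeR. CYCB1;3 alone passed an unadjusted p under 0.05, by each tool, against 11.3% of all genes by edgeR. It averaged 6.14 ± 1.01 CPM with IAA and 7.60 ± 1.12 CPM with mock, a log2 fold change of -0.31 (SE 0.14, edgeR adjusted p = 0.392). For 0 of the 10 did the groups fail to overlap, against 17.2% of all genes. The median of the 10 was -0.047, beside -0.005 for all genes, with 2 positive and 8 negative estimates.

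In WT, IAA also changed 0 of the 10 by any of the 3 tools, against 1.21% of all genes by edgeR, and 0 passed an unadjusted p under 0.05, against 9.77%. All 10 estimates were negative, with a median of -0.146 beside 0 for all genes. CYCB1;2, CYCB1;3 and CDKB2;1 lay below mock in all 3 libraries. Groups thus did not overlap for 3 of 10, against 13.4% of all genes when both directions are counted. CYCB1;2 averaged 16.8 ± 2.07 CPM with IAA and 19.6 ± 1.24 CPM with mock, a log2 fold change of -0.22 (SE 0.10, edgeR adjusted p = 0.512). CDKB2;1 averaged 18.2 CPM with IAA and 20.4 CPM with mock, a log2 fold change of -0.17 (SE 0.083, edgeR adjusted p = 0.525). The shared sign rested in part on single libraries: without WT IAA replicate 3 it was 7 negative and 3 positive, with a median of -0.073, and without WT mock replicate 2 it was 9 and 1, with a median of -0.095.

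The difference between the genotypes' IAA responses (the interaction) was called for 0 of the 10 and for 0% of all genes by edgeR (15 genes of the table by DESeq2, with 0 of the 10 by DESeq2 or limma-voom), and 0 of 10 passed an unadjusted p under 0.05 against 5.98% of all genes. The 10 interaction estimates had a median of 0.086, beside -0.003 for all genes.

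The 95% confidence intervals were taken for 1 gene and 1 comparison at a time, from the spread between these libraries. All 10 lay within a 2-fold change in each of the 5 comparisons. Within 1.5-fold lay 9 of 10 for genotype under mock, 10 for genotype under IAA, 9 for IAA in er erl2, 10 for IAA in WT and 7 for the interaction. A p that misses the threshold does not show that levels were equal.

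**Figure D3:**
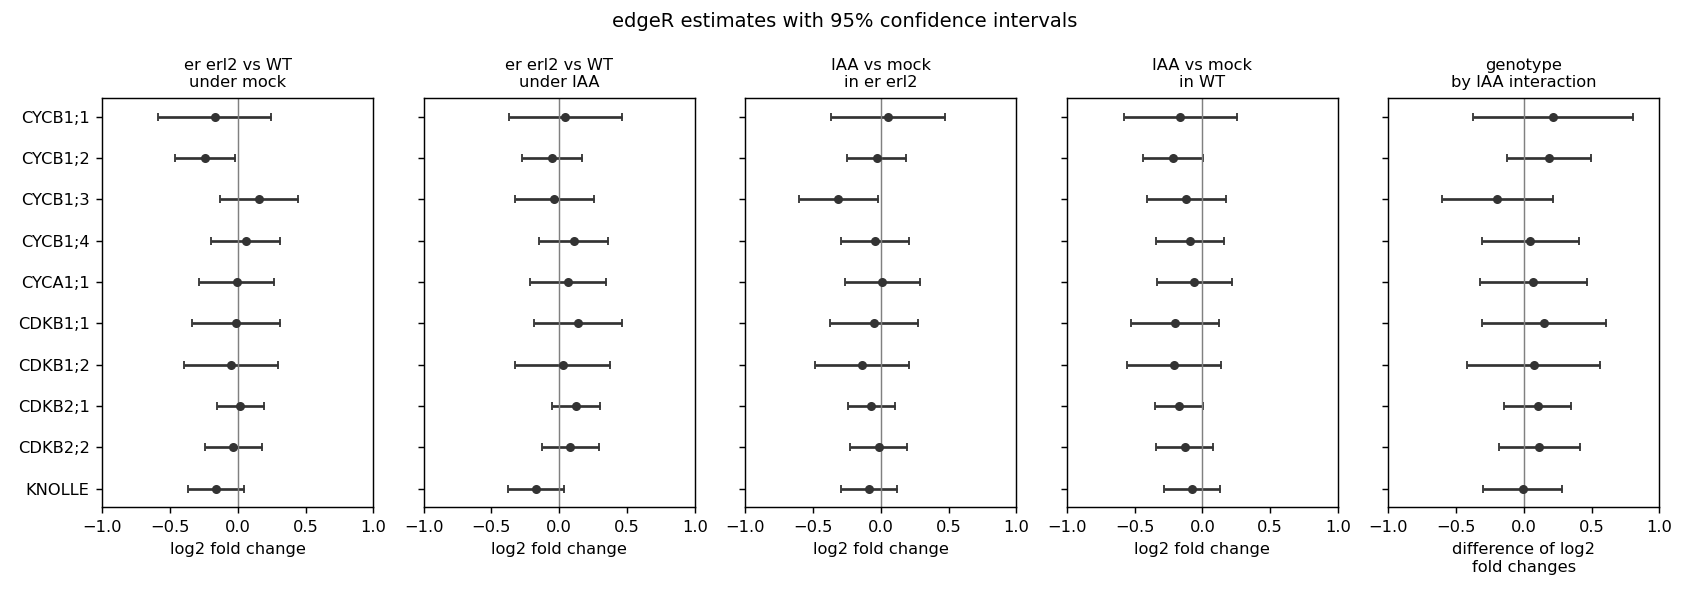
Log2 fold changes of the 10 genes with 95% confidence intervals in each comparison, from the edgeR fit. The intervals of nearly all genes include 0, with 1 B1 cyclin as the exception for genotype under mock and 1 for IAA in er erl2.

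Part of the variation was shared by the genes of a library. WT IAA replicate 3 was the lowest of its group for 9 of 10 genes, with a median deviation of -0.14 (log2) from the group mean. WT IAA replicate 2 lay above the mean for 10 of 10, with a median deviation of 0.15. Replicate 3 of er erl2 mock was the highest of its group for 9 of 10. Other libraries were mixed, such as er erl2 IAA replicate 1, the lowest of its group for 4 genes and the highest for 4. Each gene's Pearson correlation with the mean of the other 9 ran from 0.34 for CYCA1;1 to 0.64 for CYCB1;4 over the 12 libraries. All genes of a library share its depth and preparation.

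**Figure D4:**
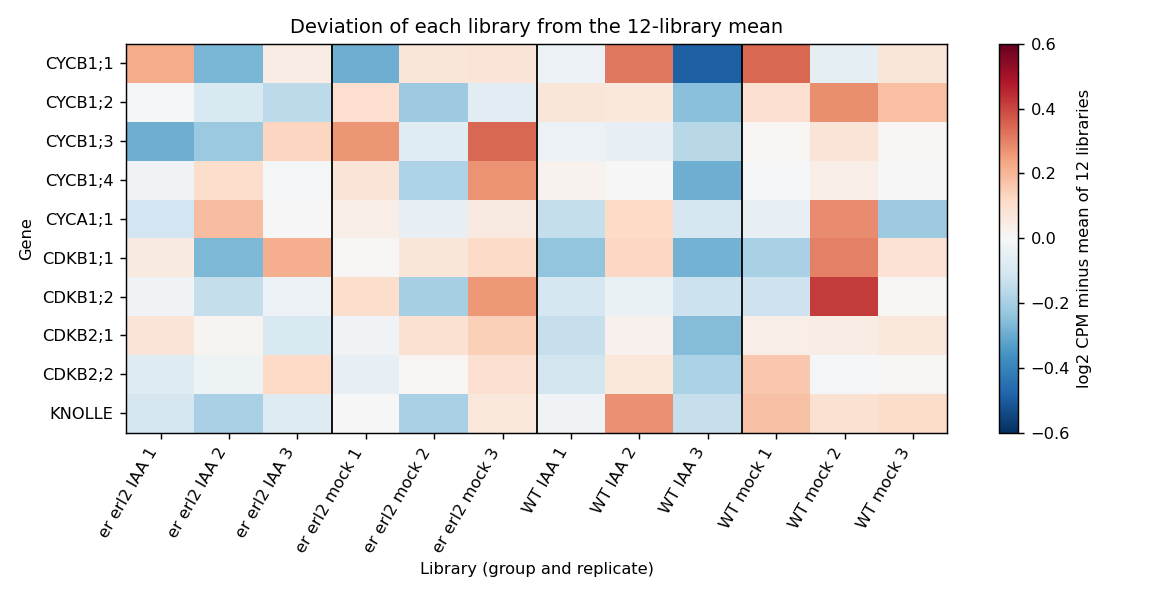
Deviation of each gene (log2 CPM) from its mean over the 12 libraries, by library. WT IAA replicate 3 is low for most genes, with a mean deviation of -0.23.

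Of 17711 other genes, those most like the mean profile of the 10 over the 12 libraries were 3xHMG-box2 (AT4G23800, an HMG-box protein, Pearson r 0.95), AT4G01240 (0.95), CRT1b (AT1G09210, a calreticulin, 0.94), AT2G28620 (0.94) and AT4G31810 (0.93). These values describe likeness across libraries only.

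Other cell-cycle lists were read beside the 10. Among 13 tested cyclins of the A and other B classes, 0 were called for genotype under mock (1 at an unadjusted p under 0.05, and 0 by DESeq2 or limma-voom) and 1 was higher under IAA. Among 21 genes of mitosis and cytokinesis, 1 was lower under each treatment. Among 20 CDK partners, inhibitors and regulators, 2 were higher and 1 lower under mock, and 1 was higher and 1 lower under IAA. Over all tested genes, 15.7% were called under mock and 14.0% under IAA, so 3 of 20 and 2 of 20 lay near or below the background. Among 17 DNA replication genes, 0 were called under mock (2 at an unadjusted p under 0.05, and 0 by DESeq2 or limma-voom) and 2 were higher under IAA. In these 4 lists edgeR called 0 genes for IAA in either genotype, and DESeq2 called 1, a DNA replication gene in WT. At an unadjusted p under 0.05 edgeR passed 0, 2, 1 and 1 genes of the 4 lists, in the order above, for IAA in er erl2, and 5, 1, 3 and 8 genes for IAA in WT. Of all genes, 11.3% passed in er erl2 and 9.77% in WT.

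MYB3R5 (AT5G02320), which in Arabidopsis acts as a repressor of mitotic genes, was higher in er erl2 under both treatments. It had 11.0, 10.7 and 11.1 CPM in er erl2 IAA and 10.9, 8.81 and 9.71 CPM in er erl2 mock, against 7.26, 7.04 and 7.47 CPM in WT IAA and 6.62, 6.76 and 7.00 CPM in WT mock. The genotypes did not overlap under either treatment. The log2 fold change was 0.53 (SE 0.098, edgeR adjusted p = 0.00203) under mock and 0.59 (SE 0.096, edgeR adjusted p = 0.000968) under IAA. It overlaps 150 exon bases of AT5G02310 on the opposite strand. In the same list of CDK partners, inhibitors and regulators, edgeR called MYB3R1, MYB3R3 and MYB3R4 under neither treatment. Their log2 fold changes were -0.083, -0.018 and 0.12 under mock, and -0.046, 0.010 and -0.035 under IAA.

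The other called list genes are named here after their values were seen. Under mock, CDKA;1, the main plant CDK, was higher in er erl2 (0.20 log2), and the SNARE gene NPSN11 (-0.29) and the CDK inhibitor gene KRP6 (-0.67) were lower. Under IAA, CYCA3;2 (0.33) and the replication helicase genes MCM2 (0.33) and MCM4 (0.30) were higher, and the dynamin-related gene DRP1A (-0.20) and the CDK inhibitor gene KRP1 (-0.64) were lower. Over 20 alternative settings MYB3R5 and KRP1 kept their call in all. MCM4 lost it in 13 settings, CDKA;1 in 9, MCM2 and CYCA3;2 in 6 each, KRP6 and DRP1A in 5 each and NPSN11 in 2.

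For DNA replication genes in WT, 17 of 17 estimates for IAA were negative, with a median of -0.27 beside 0 for all genes, and 8 of 17 passed an unadjusted p under 0.05, against 9.77% of all genes. DESeq2 called 1 of them, and edgeR and limma-voom called 0. For genotype under IAA, which uses the same WT IAA libraries, 17 of 17 were positive, with a median of 0.18. IAA in er erl2 gave 14 of 17 negative estimates, with a median of -0.087. Genotype under mock gave 13 of 17 positive estimates, with a median of 0.088. For the interaction, 0 of 17 passed an unadjusted p under 0.05 by edgeR, against 5.98% of all genes. The 17 estimates come from the same libraries and are not independent. Reading the signs of this list was not part of the plan. How far they rest on single libraries, as in part for the 10 mitotic genes, was not tested.

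Markers of the stomatal lineage, whose early cells divide, had medians of 1.06 under mock and 1.10 under IAA (log2, er erl2 against WT). At an adjusted p under 0.05, edgeR called 7 of 8 higher under mock and 6 under IAA. Of all genes, 15.7% and 14.0% were called in either direction. DESeq2 also called 7 and 6, and limma-voom called 6 and 6. All 8 estimates were positive under each treatment. By edgeR, MUTE was called under neither treatment (0.44 under mock and 0.010 under IAA), and EPF1 was not called under IAA (0.705). SPCH, the transcription factor that starts the lineage, averaged 26.1 CPM in er erl2 mock against 10.8 CPM in WT mock, and 25.0 CPM in er erl2 IAA against 10.5 CPM in WT IAA. The 10 mitotic genes, in the same libraries, had medians of -0.023 and 0.054. Some markers of other tissues also moved with genotype. Under mock, the leaf gene LHCB1.3 was higher in er erl2 (log2 fold change 0.23, edgeR adjusted p = 0.0269) and the root hair gene COBL9 was lower (-0.64, edgeR adjusted p = 0.0416). The estimates of the other leaf gene, RBCS1A, and the other root hair gene, EXP7, were 0.17 and -0.39, with edgeR adjusted p of 0.0669 and 0.0563. DESeq2 called all 4 of these leaf and root hair genes under mock, and limma-voom called 2. Under IAA, edgeR, DESeq2 and limma-voom called 0 of these 4, and 3 passed an unadjusted p under 0.05 by edgeR. Of 5 root meristem markers and the 2 shoot meristem markers tested (STM and KNAT1), the 3 tools called 0 for genotype under either treatment. At an unadjusted p under 0.05, edgeR passed 1 root marker under mock and 2 under IAA, and 0 shoot markers. Of all genes, 29.3% passed under mock and 28.4% under IAA. The part of tissue composition in the genotype differences of the cell-cycle and stomatal lists was not tested.

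**Figure D5:**
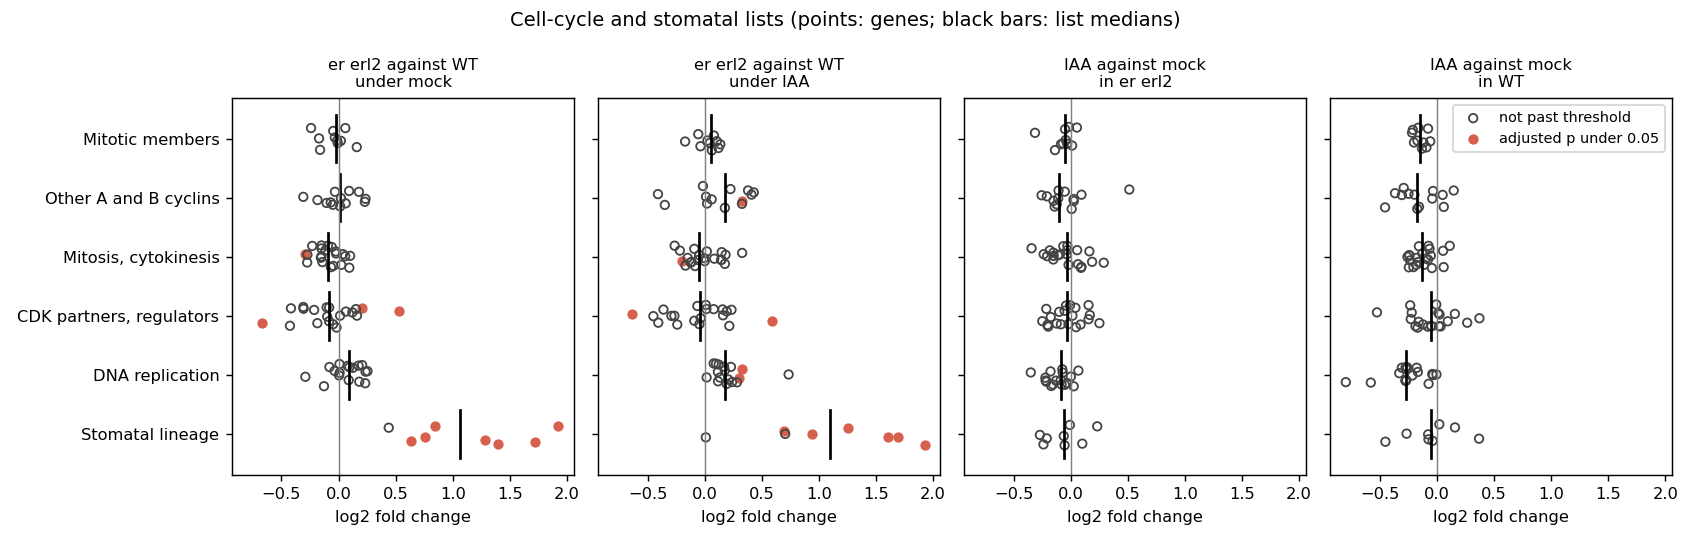
Log2 fold changes of single genes (points) with list medians (bars) in 4 comparisons. Filled points have an edgeR adjusted p under 0.05. The mitotic genes lie near 0 for genotype while stomatal lineage markers have medians of 1.06 under mock and 1.10 under IAA.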

How the data were processed

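Raw counts of reads per gene, in a single table, were deposited by the authors. Per the submitters' processing notes, the tools included bcl2fastq, STAR 2.7.6a and featureCounts 2.0.0, and the build was TAIR10. Per the labels' protocols, RNA was poly-A selected and libraries were directional. The strand setting of the counting is not given in the sources used here, so overlapping genes are uncertain.

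The analysis used edgeR 4.0.16 (R 4.3.3) after filterByExpr (minimum count 10, minimum total 15) and TMM scaling. A robust quasi-likelihood model, with 1 coefficient for each group, took in all 12 libraries, and p-values were adjusted over all genes tested. Alternatives used DESeq2 1.42.0, limma 3.58.1, other filters and libraries left out. Log2 CPM for likeness used a prior count of 2.

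The 10 genes and all lists were chosen with earlier results of these data known, although no value of the 10 was used to select them by a threshold. By rule, all 10 are named, as are genes of the 4 cell-cycle lists called alike in both genotype or both IAA comparisons, and the 5 genes most like the 10 with mean log2 CPM of at least 1. Replicate numbers did not pair the libraries. Gene positions, names and sequences come from RefSeq TAIR10.1. The coefficient of variation given for counting covers counting error only.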

Additional observations from a re-analysis of the deposited data

How the results depend on the processing

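None of the 10 mitotic genes was called in any comparison under the 20 alternatives run (19 for the interaction). The samples' replicate numbers did not pair them: 18 same-numbered pairs had correlations of -0.175 to 0.094. The 36 differently numbered pairs had correlations of -0.125 to 0.186, with 6 of them above 0.1. Signs of estimates near 0 turned. For genotype under mock, CYCA1;1 was 0.0101 with limma-voom and 0.00743 with the replicate block, and CDKB1;1 was 0.00359 with limma-voom. For genotype under IAA, CDKB1;2 was -0.0924 with a replicate block from the column prefixes, an alternative chosen after seeing the data. The cause of these and the following differences was not tested.

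Over the whole table, DESeq2 called 617 genes for IAA in er erl2 (328 by edgeR), 411 for IAA in WT (259 by edgeR) and 15 for the interaction (0 by edgeR), and fitting only the groups compared gave 172 for IAA in WT. For genotype under IAA, the other A and B cyclins called were 2 with the stricter filter, DESeq2 size factors or DESeq2, and 0 with the prefix block (1 in the chosen fit). DNA replication genes called there were 1 with limma-voom, the replicate block or only the groups compared, and 0 with the prefix block (2 in the chosen fit), and mitosis and cytokinesis genes were 0 with only the groups compared (1). For genotype under mock, mitosis and cytokinesis genes were 2 with DESeq2 (1), and CDK regulators were 1 with only the groups compared (3). DESeq2 called 1 DNA replication gene for IAA in WT (0).

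Leaving out each library in turn gave these lowest and highest values. For genotype under mock the log2 fold change ran from -0.134 to 0.112 for CDKB1;1, -0.158 to 0.132 for CDKB1;2, -0.0179 to 0.0653 for CDKB2;1, -0.0734 to 0.0251 for CDKB2;2, -0.113 to 0.146 for CYCA1;1 and -0.0563 to 0.168 for CYCB1;4. Genes called were 2029 to 3482, CDK regulators 1 to 3, and mitosis and cytokinesis genes 0 to 2. For genotype under IAA it ran from -0.0111 to 0.149 for CYCA1;1, -0.126 to 0.26 for CYCB1;1, -0.143 to 0.0104 for CYCB1;2 and -0.175 to 0.0467 for CYCB1;3. Genes called were 1946 to 3216, and cyclins, DNA replication genes and mitosis genes 0 to 2 each. For IAA in er erl2 it ran from -0.162 to 0.0762 for CDKB1;1, -0.0771 to 0.0243 for CDKB2;2, -0.0705 to 0.0808 for CYCA1;1, -0.0674 to 0.181 for CYCB1;1, -0.106 to 0.0532 for CYCB1;2 and -0.154 to 0.0706 for CYCB1;4. Genes called were 219 to 561, and mitosis genes 0 to 1. For IAA in WT it ran from -0.164 to 0.0945 for CYCA1;1, -0.377 to 0.0235 for CYCB1;1, -0.151 to 0.00505 for CYCB1;4 and -0.204 to 0.0104 for KNOLLE. Genes called were 164 to 337, and CDK regulators and DNA replication genes 0 to 1 each. For the interaction it ran from -0.108 to 0.183 for CDKB1;2, -0.0829 to 0.176 for CYCA1;1, -0.0624 to 0.162 for CYCB1;4 and -0.0914 to 0.118 for KNOLLE, with 0 to 7 genes called. Counts over the table moved by over 1.5 times without er erl2 mock replicate 2 (2158) or 3 (2057) or WT mock replicate 2 (2029) for genotype under mock, without er erl2 IAA replicate 3 (1946) or WT IAA replicate 1 (1971) for genotype under IAA, without er erl2 IAA replicate 2 (561) for IAA in er erl2, and without WT mock replicate 2 (164) for IAA in WT.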

Other observations

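Root meristem markers, which label another dividing tissue of the seedling, were read beside the mitotic genes. PLT2, a root stem cell transcription factor, averaged 1.68 ± 0.26 CPM in er erl2 IAA and 1.42 ± 0.079 CPM in er erl2 mock, against 1.07 ± 0.073 CPM in WT IAA and 1.92 ± 0.42 CPM in WT mock (SD, n = 3 each). Its genotype by IAA interaction was 1.09 (log2, SE 0.31), with an edgeR quasi-likelihood adjusted p of 0.806. PLT1 and WOX5 had interaction estimates of 0.92 and 0.71 with the same adjusted p. These 3 of 5 markers passed an unadjusted p under 0.05, against 5.98% of all genes, and 0 of 5 passed after adjustment by edgeR, DESeq2 or limma-voom. The other 2 markers, SCR and SHR, had interaction estimates of -0.052 (SE 0.11) and -0.005 (SE 0.14). They were singled out after their values were seen. The shoot meristem genes WUS and CLV3 were too low to test.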
